A study of Halocynthia roretzi with 24 samples.

Results

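The 62 gene models described here were at low levels in embryos of 8 cells and were several-fold higher in the vegetal than in the animal hemisphere at 110 cells, in the ascidian *Halocynthia roretzi*. They were chosen from 16078 models by their mean RPKM (reads per kilobase of exon and M reads, M being mega) over 4 libraries a group. A model had to have at least 1 RPKM in its highest 8-cell group, under 5 RPKM in its lowest 8-cell group, and at least 5 RPKM in vegetal hemispheres at 110 cells. After 1 RPKM was added to both means, the vegetal mean also had to be at least 3 times the animal mean at 110 cells. Model S31.g00819 was left out by name. The vegetal excess at 110 cells and the low level in the lowest 8-cell group are therefore what chose the models, not findings.

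The 24 libraries came from vegetal hemispheres, animal hemispheres and whole embryos at 110 cells and from the same 3 kinds of sample at 8 cells, with 4 libraries for each. All embryos were wild type, of the southwestern Japanese population, from animals bred for generations in an inland laboratory. No treatment is given. The labels number the libraries of each group 2, 3, 4 and 5, and values below follow that order. They say neither what a number marks nor how or when the hemispheres were separated, so p-values measure the spread between libraries, which may be technical. These are bulk samples, in which fewer cells of a type and less RNA per cell cannot be told apart.

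As background, the ascidian embryo cleaves in a fixed pattern, and the hemispheres follow different fates. The vegetal hemisphere forms endoderm, notochord, muscle and mesenchyme, and the animal hemisphere forms epidermis and much of the nervous system. RNA stored in the egg is joined by RNA made in the embryo during cleavage. The files do not tell these sources apart, so the RNA at 8 cells is called 8-cell RNA below. Identifiers begin with Harore.CG.MTP2014. in the files and are shortened after that. The annotation gives no gene names. It gives a best match to KH models, which are gene models of another ascidian, *Ciona*. A best match was named for 45 models, a match marked as of low evalue for 3, and none for 14. None of 20 vegetal and 11 animal marker genes listed by name could be found in these notes, so the hemispheres could not be checked against named markers.

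The depth inferred from the steps between low values was 3.68 to 9.29 M reads per library, with a median of 6.08 M. A depth lower by a factor of 2 scored at least 0.8 of the best in 11 libraries, so the depth is uncertain by that factor. At the inferred depth, 3 reads in the shallowest library stood for 0.148 to 4.39 RPKM, depending on the length of the model, with a median of 0.638 RPKM. Values of 0 made up 67 of the 744 8-cell values of these models (9.01%), and 40 models were above 0 in all 12 8-cell libraries. Such floors cover counting error only.

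In vegetal hemispheres at 110 cells the 62 models had group means of 5.11 to 104 RPKM, with a median of 19.9 RPKM. In animal hemispheres at 110 cells their means were 0.354 to 8.88 RPKM, with a median of 2.13 RPKM. The vegetal means were 3.47 to 108 times the animal means, with a median of 6.68 times. Low vegetal levels were common, with 17 models at 5 to 10 RPKM, 14 at 10 to 20, 24 at 20 to 40 and 7 at 40 RPKM or more. All 4 vegetal libraries exceeded all 4 animal libraries in 55 models. That separation was found in 5.86% of the 12703 models tested, and nothing is read from the count because the rule used this contrast. The vegetal library exceeded the animal library of the same number in 61, 62, 62 and 61 models. The rule favours this as well, and the share of all models was not worked out, so nothing is read from these counts either.

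**Figure D1:**
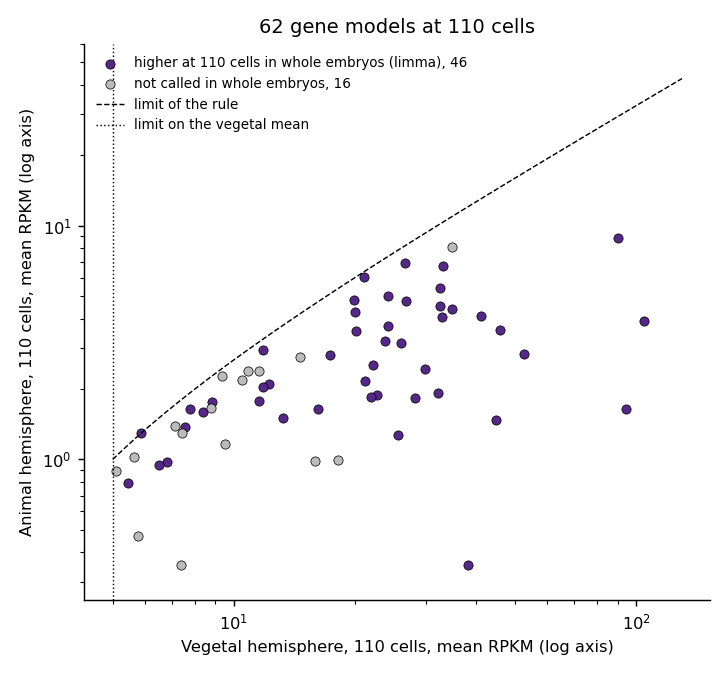
Mean RPKM in vegetal hemispheres (horizontal, log axis) against animal hemispheres (vertical, log axis) at 110 cells for the 62 models, 4 libraries a mean, with the limits of the rule as lines. Purple points are the 46 models called higher at 110 cells in whole embryos, and grey points are the 16 not called, most of them at the low vegetal end.

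S31.g08208 (scaffold S31, 111328 to 113148, minus strand, 1 exon, best match KH.C11.313) had the smallest animal level relative to vegetal once 1 RPKM was added. It had 68.5, 120, 105 and 84.3 RPKM in vegetal hemispheres at 110 cells, against 0.954, 3.92, 0.0976 and 1.63 RPKM in animal hemispheres. The vegetal mean was 94.5 ± 22.8 RPKM and the animal mean 1.65 ± 1.64 RPKM (SD, n = 4 each), a 57.3-fold difference. Every vegetal library lay far above every animal one. At 8 cells its means were 2.33 ± 0.625 RPKM in vegetal hemispheres and 1.27 ± 0.473 RPKM in animal ones (SD, n = 4 each). The model lies 62 bases from S31.g00819 on the other strand, which averaged 131 RPKM in vegetal hemispheres and 0.424 RPKM in animal ones at 110 cells. The libraries did not keep strand.

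S1869.g13385 (scaffold S1869, 1 to 1117, plus strand, best match KH.C8.309) had the largest ratio of plain means. It was 108-fold, but the animal mean of 0.354 RPKM rested on 6.03 inferred reads over 4 libraries and lay under the 0.56 to 1.42 RPKM that 3 reads stand for in a library, so the fold is not precise. Its vegetal libraries at 110 cells gave 83.1, 9.45, 12 and 48.4 RPKM, and its animal libraries 0, 0.502, 0 and 0.913 RPKM. The groups did not overlap, but the vegetal libraries differed widely, and their mean was 38.2 ± 34.8 RPKM (SD, n = 4). Its model starts at the first base of its scaffold.

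S59.g09314 (scaffold S59, 141982 to 145424, minus strand, best match KH.L116.40) had the highest vegetal mean of the 62. Its vegetal libraries gave 147, 64, 71.5 and 135 RPKM and its animal libraries 3.52, 3.45, 3.55 and 5.17 RPKM at 110 cells. The means were 104 ± 42.7 RPKM and 3.92 ± 0.832 RPKM (SD, n = 4 each). Vegetal libraries 2 and 5 stood well above vegetal libraries 3 and 4, and all of them far above the animal ones.

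S12.g10811 (scaffold S12, 452174 to 462989, minus strand, 6 exons, best match KH.C8.247) was the steadiest of the 62 across vegetal libraries. It had 40.3, 48.6, 49.3 and 41.5 RPKM in vegetal hemispheres and 1.22, 1.82, 1.14 and 1.73 RPKM in animal ones at 110 cells. The SD was 10.4% of the vegetal mean. Across the 62 models this share ran to 103%, with a median of 36.9%.

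S2343.g14053 (best match KH.C11.4) had 84.2, 25.3, 41.4 and 60.1 RPKM in vegetal hemispheres and 1.28, 2.75, 2.3 and 4.99 RPKM in animal hemispheres at 110 cells. S53.g03158 (best match KH.C4.394) had 23.5, 14, 30 and 35 RPKM in vegetal hemispheres and 1.75, 0.917, 0.808 and 1.62 RPKM in animal ones. In both models the lowest vegetal library was several times the highest animal one. S53.g03158 overlaps 2 models on the other strand. Those averaged 2.97 and 1.41 RPKM in vegetal hemispheres and 0 RPKM in animal ones at 110 cells. Whether part of the reads of S53.g03158 is theirs was not tested. Overlaps here are of whole spans, introns included, and shared exon bases were not checked.

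**Figure D2:**
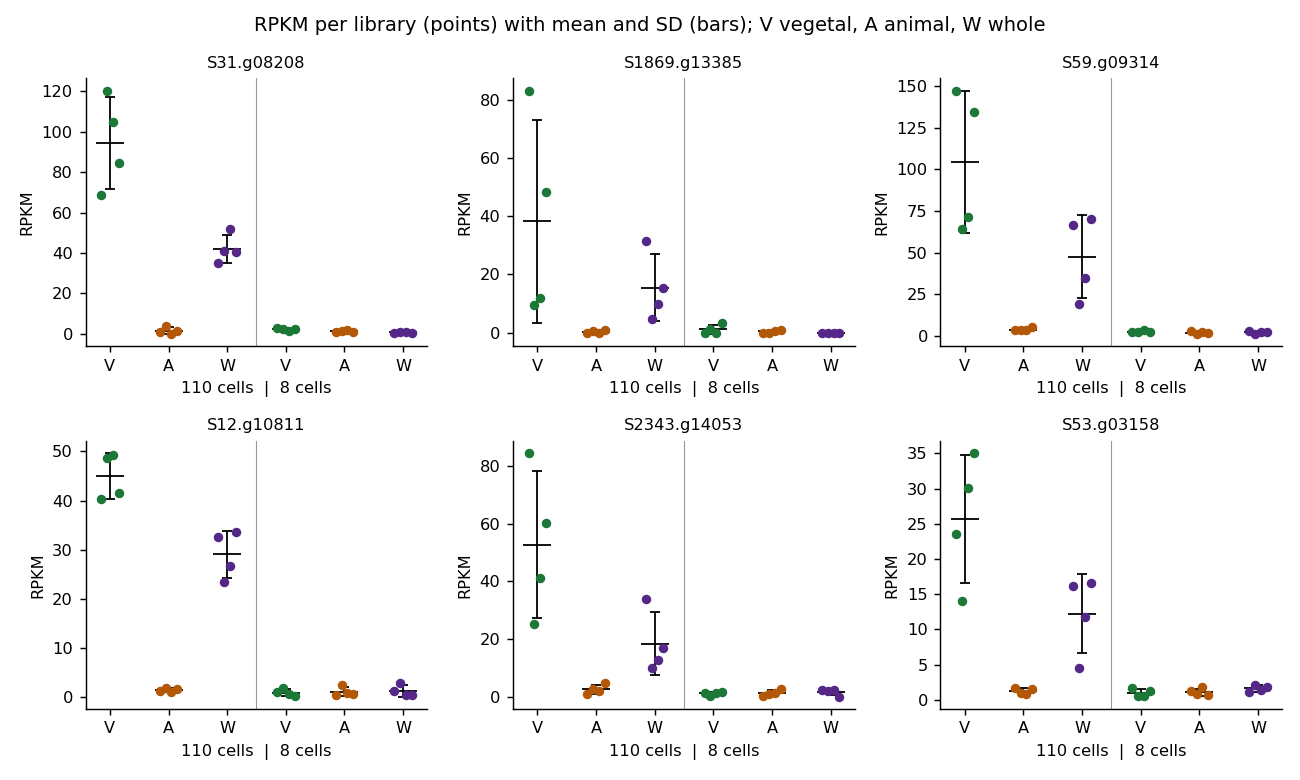
RPKM per library (points) with mean and SD (bars) for the 6 models with the smallest animal level relative to vegetal at 110 cells, in 6 groups of 4 libraries. Whole embryos at 110 cells lie between the hemispheres in all 6 panels, and the 8-cell groups stay near 0, the highest 8-cell value being under 4 RPKM.

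The models were at a low level at 8 cells in both hemispheres, by the rule, and the animal level then hardly differed between the stages. Group means at 8 cells had medians of 1.80 RPKM in vegetal hemispheres, 2.02 RPKM in animal hemispheres and 1.70 RPKM in whole embryos. The largest 8-cell mean was under 2 RPKM in 27 models, 2 to 5 RPKM in 27 and above 5 RPKM in 8. Vegetal means at 110 cells were 1.84 to 50.0 times those at 8 cells, with a median of 8.82 times, and all 4 vegetal libraries at 110 cells exceeded all 4 at 8 cells in 56 models, against 11.6% of models tested. Since the rule set levels at both ends of that change, it is a description.

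In animal hemispheres, 31 models were higher at 110 cells than at 8 cells and 31 lower, on the log2(RPKM + 1) scale. The change had a median of 0.03 and ran over -1.04 to 1.27. It stayed within 2-fold in 58 models. The 3 above that were S279.g13365 (8.88 RPKM at 110 cells against 3.10 RPKM at 8 cells), S30.g00557 (5.42 against 1.92 RPKM) and S196.g06087 (8.10 against 3.33 RPKM). The 1 below it was S8.g07493, at 0.992 RPKM at 110 cells against 3.10 RPKM at 8 cells. All 4 animal libraries at 110 cells exceeded all 4 at 8 cells in 4 models, against 8.53% of models tested, and the reverse was found in 1 model, against 6.97%. The shares of all models higher, lower or within 2-fold were not worked out, so nothing is read from those counts. Adding 1 RPKM also shrinks changes at such low levels. All these animal values are described, with no test, since the rule bounded them too.

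**Figure D3:**
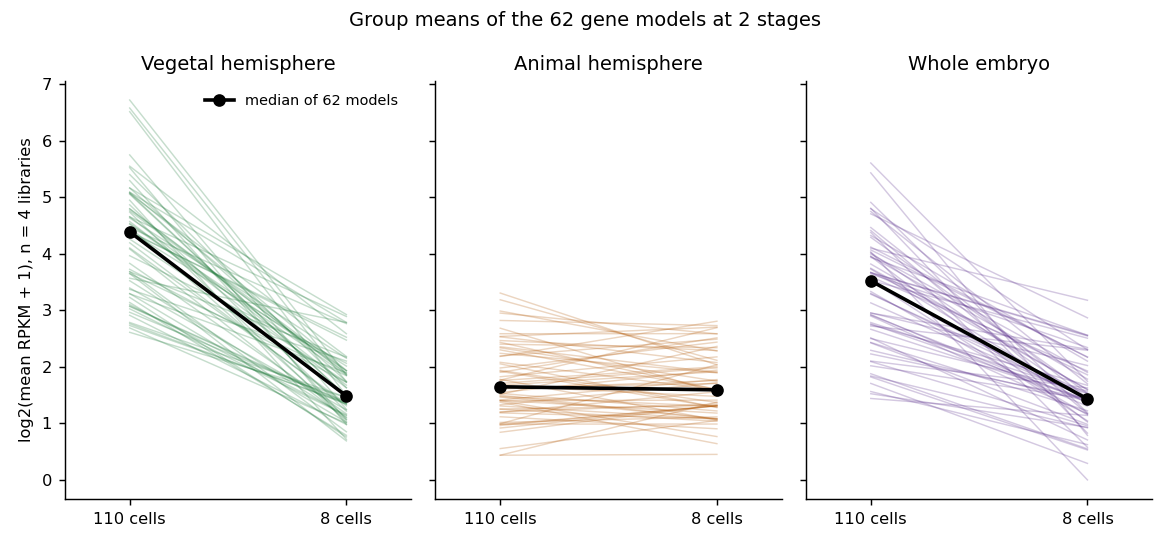
Mean of 4 libraries per model, as log2(RPKM + 1), at 110 cells and at 8 cells in vegetal hemispheres, animal hemispheres and whole embryos, for 62 models (thin lines) and their median (black). The median at 110 cells stands well above that at 8 cells in vegetal hemispheres and whole embryos, and is nearly level between the stages in animal hemispheres.

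The rule treated both hemispheres alike at 8 cells, so it did not set the direction of a difference between them. It used these values, however, and the choice of low levels bears on how large a difference can be. The test is therefore given as a description, and no absence of a difference is read from it. The difference passed in none of the 62 models. The test was limma's, on log2(RPKM + 1) over all 12703 models that reached 1 RPKM in at least 4 libraries, with Benjamini-Hochberg adjusted p under 0.05 as the threshold. All adjusted p-values were 1, and at an unadjusted p under 0.05 there were also 0 of the 62 in each direction. Among all models tested, 15 were higher in vegetal hemispheres (0.118%) and 0 in animal hemispheres. At an unadjusted p under 0.05, 146 were higher in vegetal (1.15%) and 199 in animal hemispheres (1.57%).

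Same-numbered hemispheres at 8 cells deviated together, so the fit was repeated with the number as a block. Again none of the 62 passed, against 33 of all models higher in vegetal (0.26%) and 6 in animal hemispheres (0.0472%). At an unadjusted p under 0.05, 0 of the 62 were then higher in vegetal hemispheres, against 2.83% of all models, and 2 in animal hemispheres, against 3.82%. These 2, S349.g09935 and S87.g15801, had limma adjusted p-values of 0.652 and 0.744 with the block.

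The vegetal over animal differences of the 62 had a median of -0.04, with 28 above 0 and 34 below, and ran over -1.11 to 0.85. The standard errors were 0.249 to 0.801, with a median of 0.364, so a difference within the reach of these errors could go unseen in a single model. No model had all 4 vegetal libraries above all 4 animal ones at 8 cells, against 1.09% of models tested, and none had the reverse, against 1.27%.

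Of the 62, the largest difference at 8 cells was that of S87.g15801 (scaffold S87, 194673 to 196003, plus strand, best match KH.L10.8). It had 0, 3.22, 0 and 0 RPKM in vegetal hemispheres against 4.67, 0.759, 2.26 and 1.84 RPKM in animal hemispheres, with 3 reads standing for up to 3.06 RPKM. The groups overlapped, and the log2 difference was -1.11 ± 0.57 (SE; limma unadjusted p = 0.0652, adjusted p = 1). The largest in the vegetal direction was that of S6.g05267, with 4.78, 2.19, 1.57 and 2.26 RPKM in vegetal hemispheres and 2.62, 3.09, 0 and 0 RPKM in animal ones at 8 cells. Its groups overlapped too, and the log2 difference was 0.85 ± 0.69 (SE; limma adjusted p = 1).

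Whole embryos at 110 cells were not used by the rule. Whole embryos at 8 cells entered it only through the limits on the highest and the lowest of the 3 group means at that stage. Whole embryos of the 2 stages were compared in the same fit. A rise is favoured by the choice of models with low 8-cell values and a set vegetal level, so the count is a description of how far the choice carried to other libraries. All 62 models were higher on the log2 scale, 46 passed the test and 0 fell. Among all models tested, 1721 rose (13.5%) and 1383 fell (10.9%). The log2 change of the 62 had a median of 1.70, against 0.04 over all models. At an unadjusted p under 0.05, 53 models rose, against 18.9% of all models. All 4 whole libraries at 110 cells exceeded all 4 at 8 cells in 41 of the 62, against 14.2% of all tested.

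S31.g08208 changed most. It had 35.1, 41, 51.7 and 40.7 RPKM in whole embryos at 110 cells against 0.612, 1.2, 0.769 and 0.325 RPKM at 8 cells. No 110-cell library came near an 8-cell one, and the mean was 58.0 times as high (log2 change 4.65 ± 0.32 SE; limma adjusted p = 2.02e-10). S12.g10811 had 32.5, 23.5, 26.6 and 33.5 RPKM at 110 cells against 1.36, 2.86, 0.428 and 0.452 RPKM at 8 cells. Its groups were well apart as well (log2 change 3.84 ± 0.32 SE; limma adjusted p = 3.44e-09).

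S59.g09314 had 66.8, 19, 34.9 and 70.1 RPKM in whole embryos at 110 cells against 3.04, 1.53, 2.41 and 2.42 RPKM at 8 cells. The 110-cell libraries spread over a wide range, as its vegetal libraries did, and all of them were above the 8-cell ones (log2 change 3.71 ± 0.33 SE; limma adjusted p = 1.20e-08). S1869.g13385 had 31.3, 4.69, 9.93 and 15.5 RPKM at 110 cells and is listed at 0 in all 4 libraries at 8 cells. No fold is given for it (limma adjusted p = 3.27e-05).

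S2343.g14053 had 34.1, 10.3, 12.8 and 17.1 RPKM in whole embryos at 110 cells against 2.4, 2.31, 2.59 and 0.274 RPKM at 8 cells. S53.g03158 had 16.2, 4.58, 11.8 and 16.6 RPKM at 110 cells against 1.15, 2.13, 1.36 and 1.87 RPKM at 8 cells. The stages did not overlap in either, and the log2 changes were 2.73 ± 0.42 and 2.22 ± 0.34 (SE; limma adjusted p = 3.21e-05 and 2.36e-05).

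The models that passed the test were mostly those with high vegetal levels. Among the 17 with a vegetal mean of 5 to 10 RPKM at 110 cells, 8 passed, as did 8 of the 14 at 10 to 20, 23 of the 24 at 20 to 40, and all 7 at 40 RPKM or more. The 46 had fitted log2 changes of 0.94 to 4.65 and, in the 45 with a value at 8 cells, means 2.20 to 58.0 times as high, with a median of 5.47 times. The other 16 had log2 changes of 0.35 to 1.27 and limma adjusted p-values of 0.0692 to 0.765. Their vegetal means at 110 cells had a median of 9.43 RPKM, against 23.3 RPKM for those called. Their exon length had a median of 572 bases, against 1579 bases for those called. A p above the threshold in a low or short model does not show that it did not change.

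**Figure D4:**
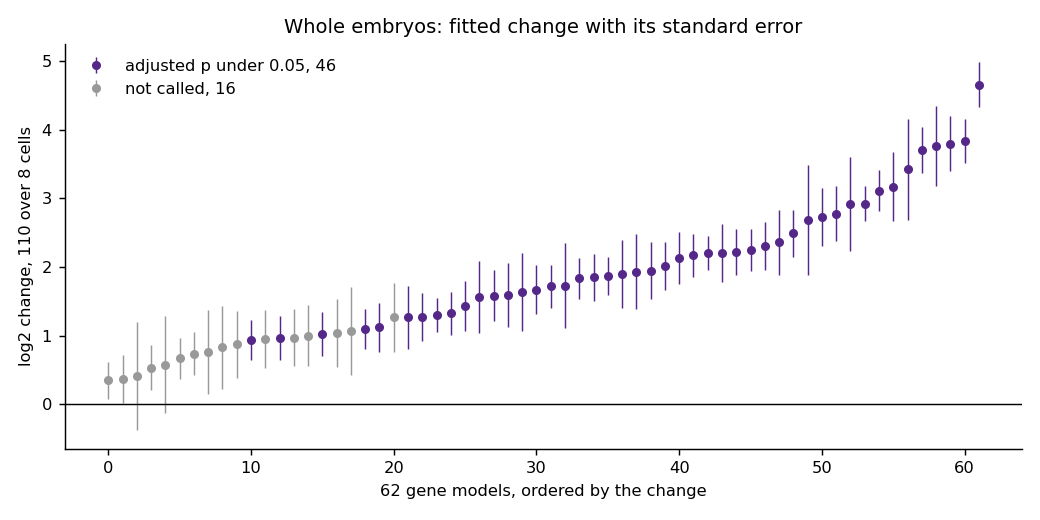
Fitted log2 change in whole embryos, 110 over 8 cells, with its standard error for each of the 62 models, in order of size, from 4 libraries a stage. Purple points are the 46 models with limma adjusted p under 0.05 and grey points the 16 others. All estimates lie above 0.

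The 4 models with the highest vegetal means among those not called show how such a result looked. S196.g06087 (scaffold S196, 142356 to 142848, plus strand, 372 exon bases, no best match) had 20.8, 29.2, 47.3 and 41.9 RPKM in vegetal hemispheres and 8.75, 7.49, 4.13 and 12 RPKM in animal ones at 110 cells. In whole embryos it had 27, 10.8, 13.9 and 12.9 RPKM at 110 cells against 6.48, 3.63, 12.9 and 9.18 RPKM at 8 cells. Its stages overlapped in whole embryos (log2 change 0.95 ± 0.42 SE; limma adjusted p = 0.108). It overlaps a model on the other strand. It also had the highest 8-cell mean in whole embryos, 8.05 RPKM.

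S8.g07493 (scaffold S8, 146459 to 147153, minus strand, no best match) had 10.3, 2.08, 6.12 and 4.28 RPKM in whole embryos at 110 cells against 3.8, 2.66, 1.79 and 0.504 RPKM at 8 cells. One of the 110-cell libraries lay within the 8-cell range (log2 change 1.04 ± 0.50 SE; limma adjusted p = 0.142). In vegetal hemispheres at 110 cells it had 11.3, 24.3, 9.85 and 27.1 RPKM, and in animal hemispheres 1.48, 2.03, 0 and 0.46 RPKM.

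S433.g04585, with only 330 exon bases and no best match, had 3.53, 2.51, 0.923 and 11.7 RPKM in whole embryos at 110 cells against 1.05, 2.65, 0 and 4.18 RPKM at 8 cells. S349.g09935 (best match KH.L71.2) had 9.83, 6.41, 5.45 and 5.21 RPKM against 3.45, 5.94, 4.47 and 1.98 RPKM. Both overlapped between the stages, with limma adjusted p-values of 0.359 and 0.115. Within numbers, 49 of the 62 models were higher at 110 than at 8 cells in all 4. Among the 16 not called there were 7 of these, S196.g06087 and S349.g09935 included. The share of all models was not worked out, and the labels do not say that numbers pair the stages. Nothing is therefore read from this count.

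Among the models with the highest whole-embryo means at 8 cells, S733.g14764, S82.g05687 and S362.g11041 passed the test in whole embryos. S733.g14764 (scaffold S733, 5535 to 24286, minus strand, best match KH.C9.40) had 31.4, 20.1, 22.1 and 26.8 RPKM at 110 cells against 4.83, 9.78, 5.72 and 4.84 RPKM at 8 cells. The stages did not overlap (log2 change 1.87 ± 0.28 SE; limma adjusted p = 2.26e-05). It overlaps S733.g03872 on the other strand, which averaged 52.5 RPKM in vegetal hemispheres and 9.49 RPKM in animal ones at 110 cells. S82.g05687 (best match KH.C9.58) had 19.1, 5.24, 12 and 10.5 RPKM against 6.06, 5.42, 2.78 and 5.32 RPKM. Its 110-cell library 3 lay within the 8-cell range, and the limma adjusted p of 0.0203 became 0.0988 without whole-embryo library 2 at 110 cells and 0.0828 without library 4 at 8 cells. S362.g11041, which has no best match, had 13.4, 16.1, 13.2 and 14.4 RPKM against 8.05, 3.69, 4.14 and 3.66 RPKM, with no overlap (limma adjusted p = 0.00491, or 0.056 without number 3 in all groups).

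Models that pass the same 110-cell limits with other 8-cell levels give the setting for these counts. Of 229 models below the 8-cell minimum, 228 were tested and 213 rose in whole embryos, with a median log2 change of 2.46. Of the 32 models above the 8-cell maximum, 12 rose, with a median of 0.40. The 62 models lay between these, at 46 and 1.70. Since the groups were cut by their 8-cell level, and this level enters the change, the order is what the cut makes likely and was not tested.

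Whole embryos hold both hemispheres. The position of the whole-embryo mean, 0 at the animal mean and 1 at the vegetal mean, had a median of 0.423 over the 62 models at 110 cells. It was below 0.5 in 42 models, below 0.2 in 8 and at least 0.7 in 8. Within libraries of one number the median was 0.578 for number 2, 0.311 for number 3, 0.494 for number 4 and 0.395 for number 5. In models below and above the 8-cell limits the medians were 0.377 and 0.290. All 4 whole-embryo libraries exceeded all 4 animal ones in 42 of the 62 (4.72% of models tested). All 4 vegetal libraries exceeded all 4 whole-embryo ones in 15 (2.68%). The rule chose high vegetal and low animal means at 110 cells, which favours both separations and bears on the position. The counts and positions are therefore descriptions, and nothing is read from the shares.

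**Figure D5:**
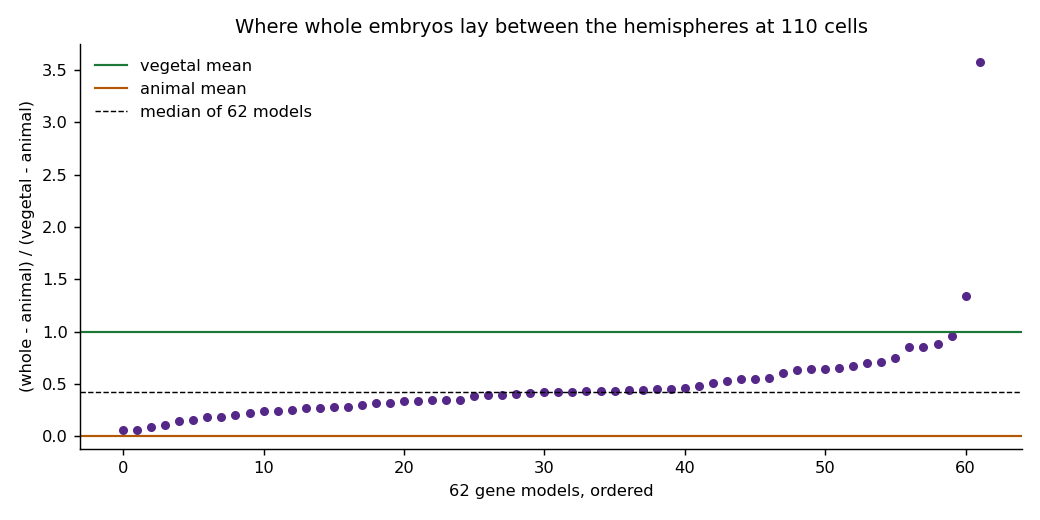
Position of the whole-embryo mean between the animal mean (0, orange line) and the vegetal mean (1, green line) at 110 cells for the 62 models, in order, with their median of 0.423 (dashed). Only 2 of the 62 models lie above 1, S22.g05991 at 1.34 and S262.g12650 at 3.57.

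Both models above 1 had a higher mean RPKM in whole embryos than in either hemisphere. S262.g12650 (scaffold S262, 78262 to 85249, minus strand, 11 exons, best match KH.C2.48) had 41.7, 11, 14.2 and 40.7 RPKM in whole embryos at 110 cells. Its vegetal libraries had 7.09, 5.39, 10.1 and 12.7 RPKM and its animal libraries 2.19, 1.87, 1.19 and 1.81 RPKM. Whole embryos were above vegetal hemispheres within every number, though whole-embryo library 3 lay below vegetal library 5. At 8 cells whole embryos had 0.624, 0.262, 1.47 and 0.745 RPKM, so the stages did not overlap (log2 change 3.79 ± 0.40 SE; limma adjusted p = 1.68e-07).

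S22.g05991 (scaffold S22, 345106 to 346512, minus strand, 1 exon, best match KH.C1.727) had 27.6, 15.2, 19.7 and 21.7 RPKM in whole embryos at 110 cells. Its vegetal libraries had 2.53, 38.5, 14.6 and 9 RPKM and its animal libraries 1.47, 1.05, 1.76 and 2.29 RPKM. The SD of the vegetal libraries was 97.1% of their mean, and whole embryos were above vegetal hemispheres in numbers 2, 4 and 5 but not 3. At 8 cells its whole embryos had 1.58, 0.11, 3.71 and 1.47 RPKM, all below those at 110 cells (log2 change 3.17 ± 0.51 SE; limma adjusted p = 4.81e-05).

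S1473.g06945 (best match KH.L106.5) had the largest spread, with 3.37, 2.1, 5.79 and 19 RPKM in vegetal hemispheres, library 5 standing far above the others. Its SD was 103% of its mean. In whole embryos it had 6.21, 2.82, 3.53 and 4.9 RPKM at 110 cells against 0.525, 2.94, 0.165 and 0.279 RPKM at 8 cells, where library 3 overlapped the later stage. Its limma adjusted p of 0.0139 became 0.123 without number 2 and 0.0825 without number 4 in all groups.

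The libraries in which the 62 models were highest are given beside those of all models tested. Vegetal hemispheres at 110 cells, which the rule used, were highest in number 2 in 23 models and in number 5 in another 23 (37.1% each), against 27.3% and 23.1% of all models tested. Whole embryos at 110 cells were highest in number 2 in 34 models (54.8%) and lowest in number 3 in 37 (59.7%), against 24.5% and 24.7% of all models tested. The highest vegetal and whole-embryo libraries bore the same number in 27 of the 62 (43.5%), against 46.6% of all tested. For the vegetal and animal hemispheres it was 18 (29.0%), against 48.1% of all tested.

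A short stretch of scaffold S6 shows such a library pattern in 2 neighbours. S6.g05267 (124649 to 125333, minus strand, best match KH.C8.859) had 55.7, 8.75, 9.08 and 30.9 RPKM in vegetal hemispheres at 110 cells and 35.7, 5.79, 6.25 and 33.4 RPKM in whole embryos. S6.g01363 (127434 to 127946, minus strand, best match KH.C11.143), 2101 bases away, had 48.9, 5.24, 6.99 and 29.8 RPKM and 38.4, 4.16, 4.90 and 31.6 RPKM. In both, numbers 2 and 5 were high and numbers 3 and 4 low in both kinds of sample. In whole embryos S6.g05267 had 0, 1.63, 1.83 and 1.54 RPKM at 8 cells (log2 change 2.92 ± 0.69 SE; limma adjusted p = 0.00260).

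The 62 models lay on 52 scaffolds. On 8 scaffolds there were 2 or more, 18 models in all, with 4 on S22. A neighbour within 5000 bases that also met both 110-cell limits was found beside 20 models (32.3%), against 3.85% of all models and 36.4% of the 324 models that met those limits. For 11 of the 20, that neighbour was itself among the 62. An overlap with another model was found for 16 (25.8%), against 32.0% of all models, and for 8 it was on the other strand (12.9% against 23.9%). Models that touch or overlap can share reads, so pairs of them are not independent.

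On scaffold S30, S30.g13687 (27997 to 31629) and S30.g00557 (24439 to 28867) overlap on the plus strand, with best matches KH.S364.2 and KH.C1.1258. S30.g13687 had 78.2, 13.9, 16.2 and 31.1 RPKM in vegetal hemispheres and 5.55, 1.32, 5.81 and 4.91 RPKM in animal ones at 110 cells. S30.g00557 had 48.5, 20.2, 19.7 and 42 RPKM in vegetal hemispheres and 7.4, 4.13, 5.8 and 4.37 RPKM in animal ones. Both were highest in number 2, and both kept their hemispheres apart. Whole embryos lay low between them, at positions 0.146 and 0.186, and rose over 8 cells with limma adjusted p-values of 0.00579 and 1.22e-05.

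On S87, S87.g15788 (191574 to 196710) and S87.g15801 lie on top of each other on the plus strand and share the best match KH.L10.8. S87.g15788 had 10.1, 18.9, 10.6 and 9.26 RPKM in vegetal hemispheres and 1.25, 3.38, 1.49 and 2.26 RPKM in animal ones at 110 cells, with no overlap. S87.g15801, whose exons total 267 bases, had 15.7, 17.2, 5.09 and 9.32 RPKM against 1.19, 6.09, 0 and 0.922 RPKM. Its hemispheres overlapped. Its limma adjusted p in whole embryos was 0.0402, and it was 0.0507 to 0.148 when library 3, 4 or 5 at 110 cells or library 2, 4 or 5 at 8 cells was left out.

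On S212, S212.g07512 (58317 to 65455, best match KH.C4.116) and S212.g03846 (65486 to 66548, no best match) are 31 bases apart on the plus strand. S212.g07512 had 26.1, 28.4, 31.3 and 46.2 RPKM in vegetal hemispheres and 3.87, 5.44, 2.55 and 4.35 RPKM in animal ones at 110 cells. S212.g03846 had 32.5, 12.3, 22.4 and 28 RPKM against 4.27, 4.81, 1.38 and 2.45 RPKM. Both rose in whole embryos (log2 changes 1.84 ± 0.30 and 1.58 ± 0.37 SE; limma adjusted p = 5.81e-05 and 0.00222).

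On S22, S22.g11242 (73092 to 74505, plus strand, best match KH.C4.182), S22.g02507 (74997 to 75726, minus strand) and S22.g09383 (76146 to 76843, minus strand) follow each other. S22.g11242 had 43.9, 38.6, 44.1 and 56.6 RPKM in vegetal hemispheres and 0.805, 2.53, 3.84 and 7.09 RPKM in animal ones at 110 cells. S22.g02507 had 61.3, 18.1, 25.6 and 23.6 RPKM against 1, 2.14, 1.03 and 3.51 RPKM. S22.g09383 was far lower, with 8.29, 3.39, 2.26 and 9.2 RPKM against 1.05, 0, 0 and 0.82 RPKM. Hemispheres did not overlap in any of the 3. In whole embryos, S22.g02507 rose with a limma adjusted p of 0.000553, while S22.g09383 had 0.0692 and, without whole-embryo library 3 at 110 cells, 0.0084.

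S2973.g00300 (545 exon bases) and S2562.g04323 (663 exon bases) are on small scaffolds and share the best match KH.L17.12, as does a further model. S2973.g00300 had 6.37, 3.97, 8.61 and 14.5 RPKM in vegetal hemispheres and 1.23, 3.69, 0 and 1.44 RPKM in animal ones at 110 cells. S2562.g04323 had 11.3, 5.76, 2.75 and 11.4 RPKM against 1.02, 3.94, 0 and 1.59 RPKM, with an overlap. In whole embryos their limma adjusted p-values were 0.0453 and 0.0317. Neither passed without library 2 or 4 at 110 cells or without library 2, 4 or 5 at 8 cells, nor did S2973.g00300 without library 5 at 110 cells. The highest values were then 0.180 for S2973.g00300 and 0.130 for S2562.g04323, both without library 5 at 8 cells. Models with a shared best match may also share reads.

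The structure of the 62 models is described by a few features. Exon length had a median of 1279 bases, against 1419 bases over all models, and exons a median of 4.5 against 6. A single exon was found in 10 (16.1%), against 12.3% of all. A best match, low evalues included, was named for 48 (77.4%, against 71.1%), and 28 shared it with another model (45.2%, against 35.4%). They were on the plus strand in 39 and on the minus strand in 23.

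At the limits, S125.g12348 was just inside the 8-cell minimum, with a largest mean of 1.08 RPKM, and S38.g11225 just outside it at 0.987 RPKM. S733.g14764 was just inside the maximum, with a smallest mean of 4.99 RPKM, and S90.g02142 outside it at 5.52 RPKM. For the vegetal minimum S36.g14043 was just inside at 5.11 RPKM and S28.g13605 just outside at 4.66 RPKM. For the ratio of animal to vegetal means with 1 RPKM added, S196.g11417 was just inside at 0.333 and S146.g06861 just outside at 0.335.

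S36.g14043 had 1.72, 6.09, 5 and 7.62 RPKM in vegetal hemispheres and 1.75, 0, 0 and 1.81 RPKM in animal ones, so its hemispheres overlapped in spite of the means. S125.g12348 (scaffold S125, 162901 to 173816, plus strand, 23 exons, best match KH.C9.371) had 18.7, 30.9, 27.9 and 41.9 RPKM in vegetal hemispheres and 2.04, 2.5, 1.6 and 3.57 RPKM in animal ones. In whole embryos it had 16.5, 12, 10.7 and 18.7 RPKM at 110 cells against 1.51, 1.31, 0.737 and 0.578 RPKM at 8 cells, with no overlap (limma adjusted p = 6.30e-09). Its limma adjusted p was the third lowest of the 62 in whole embryos.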

How the data were processed

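Expression was measured by RNA sequencing in 24 *Halocynthia roretzi* libraries, 4 in each of 6 groups. Per the labels' protocols, Trizol served for the RNA and a TruSeq kit for libraries, which were not stranded. HISAT2 is named in the submitters' processing notes, without a version. How reads were counted, what became of multiply mapped reads, and the build are not given in these sources. RPKM values were deposited by the authors for 16078 models, and an annotation with positions and other notes on scaffolds. Each library summed to 1.012 to 1.032 M once RPKM was multiplied by exon kilobases, so RPKM is a share of reads in genes and shows no change in total RNA.

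The members, lists and tests were chosen with earlier results of these data known. Models with at least 1 RPKM in at least 4 libraries (12703, including all 62) were fitted in R 4.3.3 with limma 3.58.1 on log2(RPKM + 1), 6 groups in one fit with a trend, Benjamini-Hochberg threshold 0.05. The fit was tested on simulated data. Depth was inferred from low values, of which 60.6% to 72.0% lay within 0.1 read of a whole number, so no count model was used. Models were named by rule: the 6 smallest animal to vegetal ratios, the 5 largest whole-embryo changes, the 4 highest vegetal means not called, the 2 largest 8-cell differences, the 4 highest whole-embryo means at 8 cells, the closest 4 pairs on scaffolds, pairs sharing a best match, the 2 largest vegetal spreads and the models at each limit. A few others were named after their values were seen (S22.g11242, S6.g01363, S279.g13365 and neighbours of members). Same-numbered hemispheres at 8 cells deviated together (correlations 0.43, 0.51, 0.37 and 0.58), so the numbers were taken to pair those libraries, which the labels do not state. In the comparison of hemispheres at 8 cells, the block changed no adjusted call among the 62.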

Additional observations from a re-analysis of the deposited data

Results flagged for a closer look

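About 1 in 20 groups of 4 normally spread values hold 1 value far enough from the others to be flagged here. Low RPKM values need not spread so, and some models were named for their spread. Of the 180 groups of 4 libraries of the 30 models named by rule, 12 held such a library, and nothing is read from that count. In hemispheres at 110 cells these were S59.g09314 in animal library 5 (5.17 RPKM, the others 3.45 to 3.55), S433.g04585 in animal library 2 (3.93 RPKM, the others 0) and S87.g15788 in vegetal library 3 (18.9 RPKM, the others 9.26 to 10.6).

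In hemispheres at 8 cells they were S262.g12650 in animal library 4 (2.78 RPKM, the others 0.451 to 0.746), S22.g05991 in animal library 4 (3.05 RPKM, the others 1.10 to 1.33) and S87.g15801 in vegetal library 3 (3.22 RPKM, the others 0).

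In whole embryos at 8 cells they were S2343.g14053 in library 5 (0.274 RPKM, the others 2.31 to 2.59), S6.g05267 in library 2 (0 RPKM, the others 1.54 to 1.83) and S362.g11041 in library 2 (8.05 RPKM, the others 3.66 to 4.14). Further ones were S212.g03846 in library 3 (1.21 RPKM, the others 3.17 to 3.45), S22.g09383 in library 5 (0.898 RPKM, the others 0) and S1473.g06945 in library 3 (2.94 RPKM, the others 0.165 to 0.525).

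In 5 of the 62 models every vegetal library was higher and every animal library lower at 110 than at 8 cells of the same number. S8.g07493 had log2 changes of 2.53 in vegetal and -1.04 in animal hemispheres, and S349.g09935 had 1.90 and -0.61. S21.g13407 had 2.67 and -0.85, S70.g03188 had 1.69 and -0.48, and S13.g04373 had 1.51 and -0.46. The difference between hemispheres was not tested, since the rule used it and favours the vegetal rise. The share of all models with this pattern was not worked out, so nothing is read from the count. Whether a number pairs the hemispheres of the 2 stages was not examined.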

How the results depend on the processing

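In whole embryos 46 of the 62 models rose, and 36 to 46 did when 1 of the 8 whole-embryo libraries or 1 number was left out, with 42 at a pseudocount of 0.1, 43 with no filter, 43 of the 56 that passed a filter of 5 RPKM, 36 after quantile normalization, 46 after median-ratio rescaling and 43 with the 2 groups fitted alone. With the replicate number as a block, 51 rose. Same-numbered whole-embryo libraries of the 2 stages correlated at 0.39, 0.33, 0.42 and 0.081, and each library correlated best with its own number. Only number 5 lay well below the values of the hemispheres at 8 cells. This is a hint from the data and not the design. Whether the numbers pair the stages is left undecided, so both counts are given. No model was called lower and none was called different between the hemispheres at 8 cells in any of these (0 to 0 with libraries left out). The block, which pairs the hemispheres, changed no call of the 62 there. At an unadjusted p under 0.05, 0 to 2 of the 62 were higher in vegetal and 0 to 3 in animal hemispheres at 8 cells over the alternatives. Of the 46, 32 passed in every alternative that tested them. The rule found 62 models, and 59 to 70 with 1 number left out, of which 49 to 56 were among the 62. It found 62 with group medians (55 shared) and 78 with 0.1 RPKM added in the ratio (all 62 shared), but 39 with a vegetal to animal ratio limit of 4 in place of 3. The position of whole embryos had a median of 0.423, and 0.578 within number 2. No named model reversed under any alternative. Of all 62, however, only 60 were higher in whole embryos at 110 cells after quantile normalization. It was 61 without number 2 in all groups, without whole-embryo library 2 at 110 cells, or without whole-embryo library 3 at 8 cells. The depth limits what can be seen in short, low models.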
